A study of Mus musculus with 21 samples.

Results

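Endothelial open chromatin in the mouse ventricle at E12.5, mid-gestation, was set against the RNA level of each gene in the same sorted lineage. An open region was a stretch of the genome with an ATAC peak in both endothelial libraries, and 101038 of the 136513 regions found in either library met that rule. The libraries held 114599 peaks in replicate 2 and 130708 peaks in replicate 3. RNA level was the mean CPM (counts scaled to the total on genes) of the 2 endothelial RNA libraries. Of the 24421 genes counted, 24127 had a start that could be placed, taken as the outermost exon end by strand. A gene's promoter was called open where a region lay within 1 kb of that start, and a region over 1 kb from every start was called distal.

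The endothelial cells (EC) were GFP-positive cells sorted from dissociated ventricles of embryos carrying Tie2-Cre and the Rosa26fsTrap reporter, with 40000 cells for each of 2 ATAC libraries and 60000 cells for each of 2 RNA libraries. Tie2-Cre is driven by regulatory DNA of Tek and marks endothelium and endocardium, and it is also active in blood cells. Cells that descend from a marked cell keep the reporter, so cushion mesenchyme made from endocardium is marked as well. The RNA set against it came from 3 libraries labelled cardiomyocytes (CM) of the same embryonic day, for which no Cre or reporter is named in the labels. All 5 RNA libraries were polyadenylated RNA. EC libraries held 27660790 and 21682362 counts on genes, and CM libraries held 48393473, 42948614 and 45522886. The labels name no litter or culture for a replicate, so each p measures the spread between these libraries, which may be technical. The sources used here do not give the isolation of the cardiomyocytes, so lineage cannot be told apart from any difference in preparation between EC and CM RNA. Also used were 3 Tie2-lineage libraries of GATA4 binding (bioChIP) of the same embryonic day. Endothelial ATAC libraries labelled Gata4 ko or Gata4 het, with a Cdh5-driven Cre activated by tamoxifen at E9.5, served for a comparison further below.

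ATAC uses a transposase that cuts and tags DNA not wrapped tightly in nucleosomes, so promoters and enhancers in use stand out as peaks. A promoter is the stretch around a start where RNA polymerase is loaded. Enhancers are bound by cell-type factors and can lie far from the gene they act on. Many promoters of widely used genes lie in CpG islands, which keep an unmethylated, nucleosome-poor state also where the gene makes little RNA. Endothelial enhancers are known to be bound by ETS family factors and, in endocardium, by GATA4.

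Promoter windows from RefSeq, on GRCm38.p6, show what the open and unopened classes look like as sequence. Each covers 250 bases before to 50 bases after a RefSeq start and reads 5′ to 3′ along the gene, with each CG pair in capitals. The first set holds open promoters of highly expressed endothelial genes, namely Tek, the angiopoietin receptor also called Tie2, Kdr, the receptor VEGFR2, and Eng, the TGF-beta co-receptor endoglin.
Tek (chr4:94739039-94739338, + strand): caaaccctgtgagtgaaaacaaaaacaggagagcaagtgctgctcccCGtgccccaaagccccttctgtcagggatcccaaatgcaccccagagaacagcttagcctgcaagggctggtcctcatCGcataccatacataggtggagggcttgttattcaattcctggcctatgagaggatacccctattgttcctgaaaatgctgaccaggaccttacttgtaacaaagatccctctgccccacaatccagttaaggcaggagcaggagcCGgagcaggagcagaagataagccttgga
Kdr (chr5:75978406-75978705, - strand): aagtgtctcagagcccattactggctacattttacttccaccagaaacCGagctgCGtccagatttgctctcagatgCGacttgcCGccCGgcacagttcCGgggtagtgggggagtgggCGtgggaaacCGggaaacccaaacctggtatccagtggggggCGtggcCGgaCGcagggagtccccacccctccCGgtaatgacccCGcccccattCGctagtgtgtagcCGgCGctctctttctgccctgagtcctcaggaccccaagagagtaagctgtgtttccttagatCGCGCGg
Eng (chr2:32646345-32646644, + strand): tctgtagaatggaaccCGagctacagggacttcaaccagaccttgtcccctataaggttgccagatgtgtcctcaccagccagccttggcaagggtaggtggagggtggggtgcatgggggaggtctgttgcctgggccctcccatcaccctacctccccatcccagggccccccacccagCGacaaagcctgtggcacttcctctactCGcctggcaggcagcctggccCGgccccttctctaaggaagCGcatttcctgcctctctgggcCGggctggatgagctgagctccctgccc

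The second set holds promoters with no peak in either endothelial library. Myh7 and Actc1 encode the slow myosin heavy chain and cardiac actin of cardiomyocytes, and Olfr1151 encodes an olfactory receptor.
Myh7 (chr14:54994500-54994799, - strand): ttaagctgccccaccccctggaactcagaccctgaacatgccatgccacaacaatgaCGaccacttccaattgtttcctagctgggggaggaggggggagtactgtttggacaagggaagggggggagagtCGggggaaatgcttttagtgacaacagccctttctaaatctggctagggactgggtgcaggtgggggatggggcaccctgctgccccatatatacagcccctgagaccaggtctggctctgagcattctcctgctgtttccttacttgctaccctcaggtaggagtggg
Actc1 (chr2:114052826-114053125, - strand): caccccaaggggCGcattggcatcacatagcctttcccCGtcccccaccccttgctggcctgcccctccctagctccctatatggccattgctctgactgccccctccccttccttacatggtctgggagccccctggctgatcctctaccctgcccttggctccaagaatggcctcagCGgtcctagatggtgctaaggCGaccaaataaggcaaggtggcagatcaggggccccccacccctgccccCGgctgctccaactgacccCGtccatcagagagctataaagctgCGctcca
Olfr1151 (chr2:87856927-87857226, + strand): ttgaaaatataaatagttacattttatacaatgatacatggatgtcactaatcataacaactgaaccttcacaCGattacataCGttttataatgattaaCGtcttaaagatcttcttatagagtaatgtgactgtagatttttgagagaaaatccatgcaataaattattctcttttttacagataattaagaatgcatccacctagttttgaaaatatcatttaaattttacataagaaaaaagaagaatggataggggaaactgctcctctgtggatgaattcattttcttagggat

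The Kdr window held 19 CG pairs, with a ratio of observed to expected CG of 0.689. Open promoters of Tek and Eng held 3 and 6 CG pairs, with ratios of 0.149 and 0.202. The unopened windows held 2 CG pairs at Myh7, 7 at Actc1 and 3 at Olfr1151, with ratios of 0.0847, 0.259 and 0.511. The ratios at Actc1 and Olfr1151 were thus above those at the open Tek and Eng promoters, so these windows do not part by the ratio. Of the 3 open endothelial promoters shown, Kdr alone was CG-rich by a ratio of at least 0.6.

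A RefSeq window was found for 16696 genes, and it was CG-rich in 73.1% of 10982 open promoters, against 4.22% of 5714 that were not open. Among open promoters the CG-rich share was 44.3% at 0 counts, 61.3% at 0.1 to 10 CPM and 83.4% at 10 CPM and more. Promoters of genes of at least 10 CPM that were not open had a share of 9.88% (n = 162), against 3.24% of unopened promoters at 0 counts (n = 3953). Of 30 endothelial genes in a list of lineage markers, 16 matched a window, and their median ratio was 0.332, against 0.593 for all windows. The median for 35 matched homeobox and patterning genes, which pattern the body axis and early organs, was 0.754.

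Short motifs were searched on both strands of the same windows, and none of the searched letter strings contains another. The ETS string CGGAAG was in 36.7% of open promoters of at least 10 CPM, in 10.6% of open promoters at 0 counts and in 5.06% of unopened promoters at 0 counts, against 21.9% of all windows. The GC box GGGCGG, known for Sp and Klf factors, was in 66.9% of open and 10.7% of unopened promoters, against 47.6% of all. The GATA string AGATAA ran the other way, with 5.85% of open and 17% of unopened promoters, against 9.66% of all. The TATA box TATAAA did likewise, with 6.54% and 24.9%, against 12.8% of all. The CCAAT box CCAAT was in 37.7% of open and 40.2% of unopened promoters (38.6% of all), and the E-box CANNTG in 62.6% and 80.8% (68.8% of all). The median GC content was 61.7% in open and 46.3% in unopened windows, and the part of base composition in the motif shares was not tested. Tek and Olfr1151 each held 1 GATA match, and none of the windows printed here held the ETS string.

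Expressed genes nearly always had an open promoter and genes with no RNA seldom did. Over all genes 66.2% had one. From low to high RNA level, the share was 21.4% of 7380 genes with 0 counts, 44.6% of 1529 genes above 0 to 0.1 CPM, 66.9% of 2874 genes at 0.1 to 1 CPM, 90.3% of 3353 genes at 1 to 10 CPM, 97.3% of 6852 genes at 10 to 100 CPM and 97.8% of 2139 genes at 100 CPM and more. The step between the lowest and the highest class was 76.3 percentage points. The SD over the 4 pairings of a single ATAC with a single RNA library was 1.25 points. That SD describes single libraries and not the value of 76.3. Leaving out 1 library at a time gave steps of 72.6 to 75.8 points, all below it. With peaks of replicate 2 alone the lowest class had 21.9% and the highest 97.8%, and with replicate 3 alone 23.7% and 97.8%. The libraries thus gave the same order of classes, and the share changed little above 10 CPM. Genes are not replicates of a condition, so no p is given over them.

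**Figure D1:**
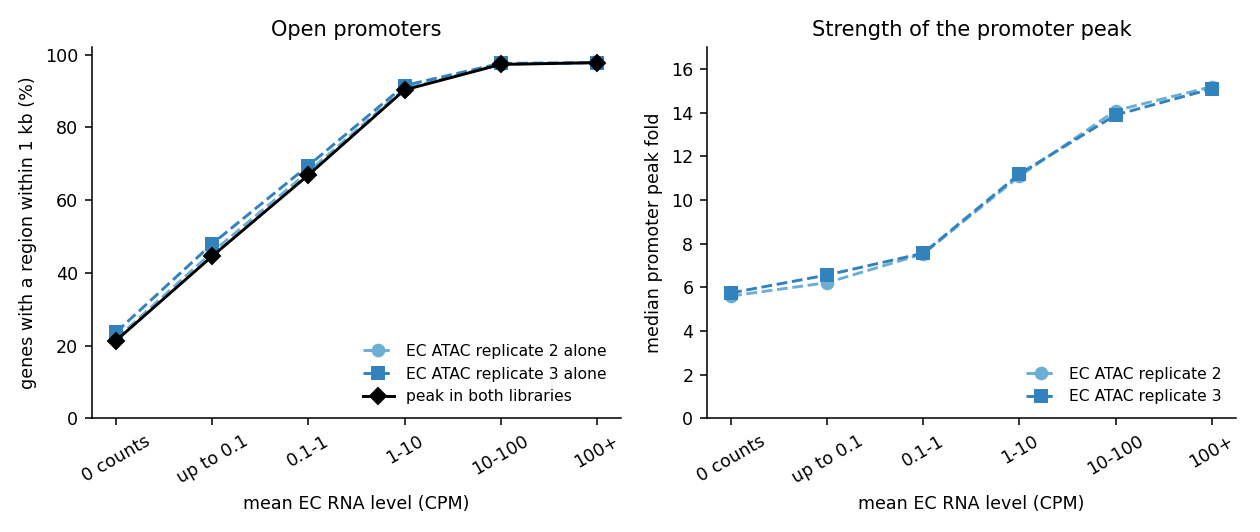
Left, the percentage of genes with a region within 1 kb of the start in 6 classes of mean EC RNA level, for each ATAC library and for peaks in both. Right, the median fold over background of the promoter peak in open promoters; the share levels off near 97.3% and 97.8% in the upper classes, while the peak fold goes on to 15.2 and 15.1.

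Peaks at open promoters were also stronger and wider at higher RNA level. Their median fold over background, as deposited, was 5.61 in replicate 2 and 5.75 in replicate 3 at 0 counts, 11.1 and 11.2 at 1 to 10 CPM, and 15.2 and 15.1 at 100 CPM and more. Median width of the promoter region was 893 bp at 0 counts, 1474 bp at 1 to 10 CPM and 2153 bp at 100 CPM and more. Across the 15973 genes with an open promoter, Spearman's rho between RNA level and promoter peak fold was 0.52 in replicate 2 and 0.51 in replicate 3, and 0.31 and 0.30 across the 11787 of them at 1 CPM or more. All points share the same libraries, and genes are not independent. RNA counts were not divided by gene length in these classes.

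The share of open promoters with GATA4 was larger at higher RNA level. A promoter region overlapped a region with a Tie2-lineage GATA4 peak in at least 2 of 3 libraries at 10.3% of open promoters with 0 counts, 15.2% at 1 to 10 CPM and 23.2% at 100 CPM and more. The width of the regions moved with the same classes, and its part was not tested. Of distal regions near genes, 8.56% overlapped GATA4 at 0 counts and 10.3% at 100 CPM and more.

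Coverage along the gene was concentrated at the start. At 125 bp downstream of the start, an open region covered 13.9% of genes at 0 counts, 84.9% at 1 to 10 CPM and 96.9% at 100 CPM and more. At 1875 bp downstream the share was 4.12% at 0 counts and 26.7% at 100 CPM and more, against 4.4% and 12.7% at the same distance upstream. The highest class thus extended further into the gene than ahead of it. At 49000 bp downstream 3.51% of genes at 0 counts and 7.2% at 100 CPM and more were covered.

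**Figure D2:**
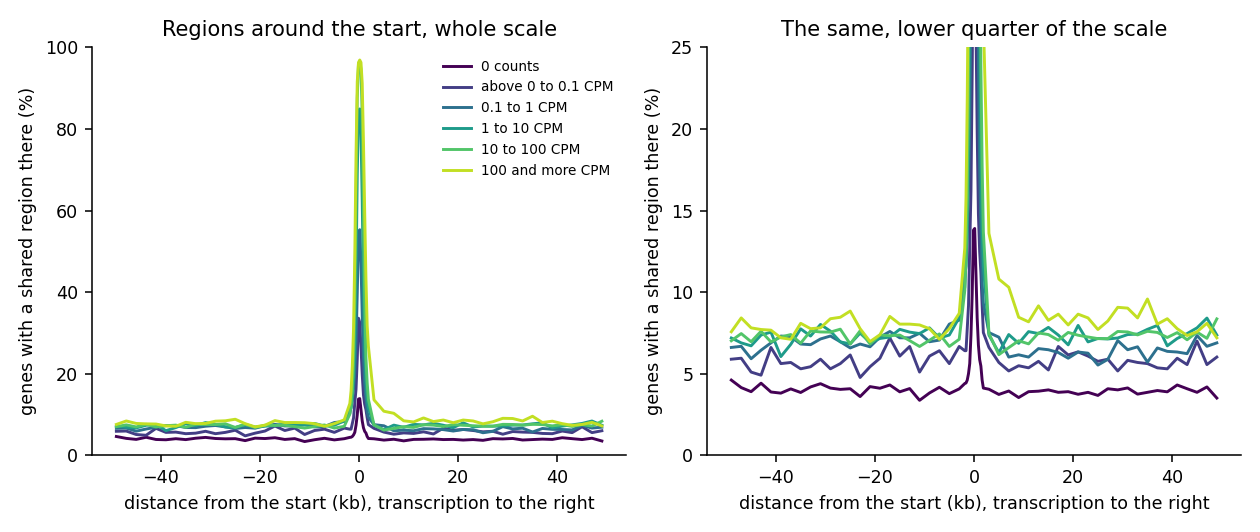
Percentage of genes with a region covering each distance from the start (kb, gene body to the right), one line for each RNA class, with the lower part of the scale drawn again on the right. At 125 bp the lines lie between 13.9% and 96.9%, and at 49000 bp downstream between 3.51% and 8.36%.

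Of the 101038 regions, 15.2% lay within 1 kb of a start, 39.4% lay in introns, 41.6% between genes and 3.84% in exons. Regions at starts had a median width of 1501 bp and a median fold of 11.4 in both libraries. Regions between genes had a median width of 533 bp and median folds of 4.38 and 4.65, so the largest part of the open regions was distal, narrower and weaker. A share of 61.3% of genes had their start inside a region, and 58.7% of those genes were at 10 CPM or more. Genes whose nearest region lay over 10 kb away made up 20% of all, and 1.29% of them were at 10 CPM or more.

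Distal regions near a gene also went with RNA level, with the widest steps at the lowest and the highest class. Mean distal regions within 50 kb were 3.57 at 0 counts, 4.9 above 0 to 0.1 CPM, 5.48 at 0.1 to 1 CPM, 5.82 at 1 to 10 CPM, 5.96 at 10 to 100 CPM and 7.15 at 100 CPM and more. Counting promoter regions too, the means were 4.71 at 0 counts and 9.56 at 100 CPM and more, a difference of 4.85 regions. Pairings of single libraries had an SD of 0.244, which describes those pairings and not the value of 4.85. With ATAC replicate 2 alone the difference was 5.88, and with replicate 3 alone 6.27. With each region given to its nearest start alone, a setting chosen after seeing the data, the difference was 3.14. No region lay within 50 kb of 26.9% of genes at 0 counts, and of 0.204% at 10 to 100 CPM. Over all 24127 genes rho between RNA level and distal regions was 0.30. Among the 15973 genes with an open promoter it was 0.06.

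Once the promoter was open, the mean distal count at 0 counts lay within the range of the expressed classes. The mean was 6.44 distal regions at open promoters with 0 counts, 5.84 above 0 to 0.1 CPM, 5.91 at 1 to 10 CPM and 7.12 at 100 CPM and more. Genes at 0 counts without an open promoter had 2.79. Median RNA level at open promoters was 4.99 CPM with 0 distal regions, 12 CPM with 1, 15 CPM with 2 to 3, 14.1 CPM with 4 to 7 and 16.2 CPM with 8 or more. Other gene starts within 50 kb averaged 2.87 at 0 counts and 1.97 at 100 CPM and more.

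Endothelial genes had open promoters and many distal regions. All 30 listed markers had an open promoter, against 66.2% of all genes and 97.4% of genes at 10 CPM or more. They had 3 to 25 distal regions, with a mean of 10.9, against 5.19 over all genes and 7.15 over genes at 100 CPM and more. The list's median RNA level was 193 CPM. A high mean was not particular to this list, since immediate early genes had a mean of 11.2. In RNA, all 30 were higher in EC than in CM at an adjusted p under 0.05 (edgeR's quasi-likelihood test with Benjamini-Hochberg adjustment), against 37.5% of the 14851 genes tested that were called higher and 40.2% called lower. The list's median log2 fold change was 2.64, against -0.05 over all tested genes with a placed start.

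Cdh5, the adhesion molecule of endothelial junctions, had 1052 and 1022 CPM in EC, against 64.3, 73.2 and 81.3 CPM in CM. Its promoter peak was 12.54-fold and 13.78-fold over background, and 16 distal regions lay within 50 kb. EC values lay far above CM values with no overlap, and the log2 fold change was 3.78 with an SE of 0.1 (edgeR's adjusted p = 1.61e-10). Tek had 907 and 944 CPM in EC, against 216, 214 and 168 CPM in CM. Its promoter peak was the strongest of the list, at 24.5-fold and 23.2-fold, with 6 distal regions. The Cre transgene carries Tek regulatory DNA, and whether its copies added reads to this peak was not tested.

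Kdr had 900 and 899 CPM in EC, against 135, 148 and 130 CPM in CM, with promoter peaks of 12.2-fold and 11.5-fold and 17 distal regions. Plvap, a protein of the diaphragms of endothelial caveolae, had 836 and 832 CPM in EC, against 74.7, 77.4 and 59 CPM in CM, with 15 distal regions. The adhesion molecule Pecam1 had 652 and 656 CPM in EC, against 108, 105 and 88.5 CPM in CM, with 16 distal regions. Groups did not overlap for any of these genes. Eng had 648 and 618 CPM in EC, against 31, 36.2 and 35.4 CPM in CM, and the most distal regions of the list, 25. The ETS factor Ets1 had 550 and 513 CPM in EC, against 96.8, 93.2 and 85.4 CPM in CM, with 22 distal regions. Tie1, the orphan receptor related to Tek, had 496 and 472 CPM in EC, against 60.2, 55.6 and 49 CPM in CM, with 7 distal regions. Neither promoter peak nor distal regions followed the order of RNA level among these 8 genes: Tek and Tie1, with 6 and 7 distal regions, stood beside genes with 15 to 25.

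Endocardial genes had 21 of 22 promoters open (95.5%, against 66.2% of all genes), 4 to 28 distal regions and a mean of 12. RNA of 21 was called higher in EC, against 37.5% of all tested genes. Cytl1 alone was called lower, against 40.2% of all tested genes. Hapln1, a link protein of the cardiac jelly, had 1483 and 1519 CPM in EC, against 25.3, 27.9 and 23.6 CPM in CM, with promoter peaks of 12.54-fold and 12.96-fold and 7 distal regions. The junction protein gene Cgnl1 had 1300 and 1288 CPM in EC, against 339, 383 and 311 CPM in CM, with 18 distal regions. The natriuretic peptide receptor gene Npr3 had 949 and 935 CPM in EC, against 252, 251 and 202 CPM in CM, with 5 distal regions. These 3 genes rank near each other in RNA and differ widely in distal regions. Nrg1, the endocardial growth factor that acts on ERBB receptors of the myocardium, was the member without an open promoter. It had 39.6 and 35.7 CPM in EC, against 3.91, 3.66 and 2.88 CPM in CM. No shared region lay within 1 kb of its outermost start, although a peak of 1 ATAC library did. The nearest shared region was 13483 bp away, and 6 distal regions lay within 50 kb. Another exon start of Nrg1, internal exons included, lay within 1 kb of a shared region, and no RefSeq window was given.

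Genes of cushion mesenchyme, which descends from endocardium, had open promoters in 15 of 15 cases, against 66.2% of all genes. Of these 12 were at 10 CPM or more, where 97.4% of all genes were open. RNA of 13 of the 15 was called higher in EC, against 37.5% of all tested genes, while the other 2 did not pass the test. Sox9, a factor of cushion and cartilage cells, had 166 and 170 CPM in EC, against 2.29, 2.05 and 1.96 CPM in CM, and was named after its values were seen. The list shares Postn with the fibroblast list, and the source of this RNA was not tested. In bulk samples fewer cells of a type and less RNA per cell cannot be told apart.

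Genes of the sarcomere, the contractile unit of cardiomyocytes, were open in part and lower in EC than in CM RNA. Their median EC level was 21.2 CPM, against 1.29 CPM over all genes. Of 25 genes, 14 had an open promoter, and 10 of the 16 at 10 CPM or more, against 97.4% of all genes at that level. RNA of all 25 was called lower in EC, against 40.2% of all tested genes, with a median log2 fold change of -6.76. Their summed RNA was 1242 and 1228 CPM in EC, against 115967, 115635 and 123431 CPM in CM. Myh7 had 160 and 172 CPM in EC, against 31790, 33684 and 35575 CPM in CM, and no region nearer than 7506 bp. Actc1 had 105 and 109 CPM in EC, against 5416, 6124 and 6460 CPM in CM, and no region nearer than 4564 bp. The regulatory myosin light chain gene Myl2 had 57.4 and 42.7 CPM in EC, against 14368, 12962 and 14650 CPM in CM, with its nearest region at 3283 bp. Each of these 3 is well above 10 CPM in EC, where nearly all genes were open, and each was unopened. Whether these transcripts came from cardiomyocytes or their free RNA in the sort was not tested.

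Other sarcomere genes were open. Tpm1, a tropomyosin made in many cell types, had 430 and 416 CPM in EC, against 4049, 3695 and 3593 CPM in CM, with peaks of 11.3-fold and 12.8-fold. Tnnt2, cardiac troponin T, had 81.2 and 84.4 CPM in EC, against 4606, 5389 and 5871 CPM in CM, with peaks of 7.75-fold and 8.21-fold and 18 distal regions. The sarcomere list had a mean of 10.3 distal regions, against 10.9 for the endothelial list and 5.19 for all genes.

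Cardiac calcium handling and channel genes had open promoters in 13 of 17 cases (76.5%, against 66.2% of all genes), and 16 of 16 tested were lower in EC, against 40.2% of all tested genes. Atp2a2, the calcium pump SERCA2, which is made in many cells, had 380 and 410 CPM in EC, against 1904, 1931 and 2043 CPM in CM, with peaks of 15-fold and 15.8-fold. Slc8a1, the sodium-calcium exchanger, had 27.7 and 28.9 CPM in EC, against 2377, 2289 and 2452 CPM in CM, with weaker peaks of 4.49-fold and 5.48-fold. Ryr2, the calcium release channel, had 9.62 and 10.8 CPM in EC, against 939, 937 and 1051 CPM in CM, with peaks of 7.65-fold and 7.48-fold. Among the unopened, phospholamban (Pln) had 6.47 and 5.49 CPM in EC, against 2412, 1998 and 2350 CPM in CM.

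Cardiomyocyte transcription factors were open in 13 of 16 cases (81.2%, against 66.2% of all genes). In EC RNA 2 were called higher and 14 lower, against 37.5% and 40.2% of all tested genes. Mef2a had 278 and 276 CPM in EC, against 284, 311 and 356 CPM in CM, with peaks of 16.7-fold and 16.3-fold. Mef2c, a MADS-box factor that acts in both myocardium and endothelium, had 110 and 103 CPM in EC, against 248, 245 and 230 CPM in CM. No region lay nearer than 13857 bp to its outermost start, while 2 of its 3 RefSeq windows lay in an open region. Irx5, a homeobox factor, was 1 of the 2 that were higher in EC, with 66.6 and 63.7 CPM in EC, against 36, 37.8 and 30.4 CPM in CM, and peaks of 17.1-fold and 17.8-fold. Hey2, a Notch target, had 54.1 and 48 CPM in EC, against 330, 344 and 381 CPM in CM, with peaks of 17.7-fold and 18.3-fold. Strong promoter peaks in EC thus stood at factors whose RNA was lower in EC as well as at those whose RNA was higher.

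**Figure D3:**
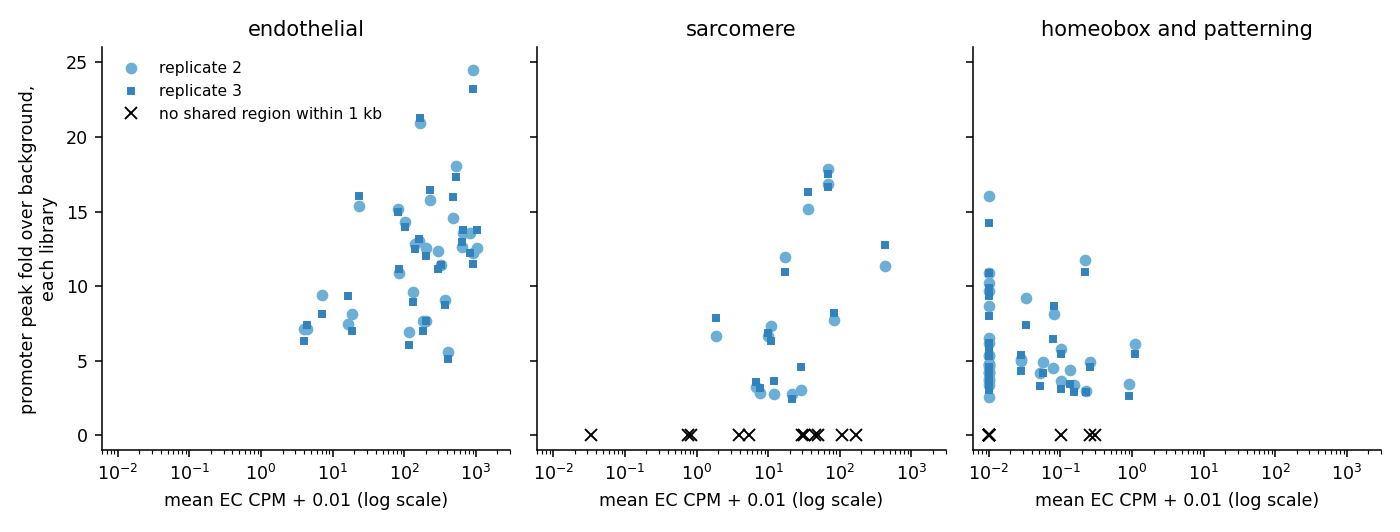
Mean EC RNA level (CPM, log axis) against the promoter peak's fold over background in each ATAC library, for 30 endothelial, 25 sarcomere and 46 homeobox and patterning genes. Light circles (replicate 2) and dark squares (replicate 3) are genes with a region within 1 kb of the start (30, 14 and 36 genes), and black crosses at 0 have none.

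Genes of cells outside the endothelial lineage were mixed. Epicardial, fibroblast and mural genes were open in 17 of 19 cases (89.5%, against 66.2% of all genes). In EC RNA 7 were called higher and 11 lower, against 37.5% and 40.2% of all tested genes. Their summed RNA was 2085 and 2015 CPM in EC, against 2027, 2100 and 2418 CPM in CM. Postn, a matrix protein of cushion and fibroblast cells, had 960 and 907 CPM in EC, against 155, 163 and 173 CPM in CM. Col1a1, a fibrillar collagen chain, had 269 and 252 CPM in EC, against 42.4, 46 and 70.4 CPM in CM, with peaks of 10.9-fold and 9.95-fold. The receptor gene Pdgfra had 222 and 216 CPM in EC, against 39.1, 37.5 and 43.3 CPM in CM. These 3 were among the 7 called higher. Of the 11 called lower, the member of highest EC level was Acta2, smooth muscle actin, with 41.5 and 44.4 CPM in EC, against 1154, 1250 and 1517 CPM in CM. The epicardial factor gene Tbx18, also lower and named after its values were seen, had 20 and 14.9 CPM in EC, against 123, 119 and 111 CPM in CM. The mesothelial genes Upk3b and Msln were the unopened members. Their part in the endothelial results was not tested.

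Blood and macrophage genes were open in 8 of 22 cases (36.4%, against 66.2% of all genes), although the Cre driver is active in blood cells. Of 19 tested, 10 were called higher and 5 lower in EC RNA, against 37.5% and 40.2% of all tested genes. The median log2 fold change was 1.40. The sum ran the other way, with 87.7 and 86.8 CPM in EC, against 3178, 2377 and 1285 CPM in CM. Most of the CM sum was embryonic globin: Hbb-y had 12.54 and 11.99 CPM in EC, against 3003, 2230 and 1188 CPM in CM, and no EC region within 1 kb. Of the open members, the platelet receptor gene Gp1ba had 21.8 and 24 CPM in EC, against 0.31, 0.256 and 0.0879 CPM in CM, and Itga2b, the platelet integrin chain, had 13.8 and 12.8 CPM in EC, against 3.82, 3.96 and 2.94 CPM in CM. The leukocyte marker Ptprc, named outside the rule for named genes, had no open promoter. It had 1.48 and 1.29 CPM in EC, against 0.145, 0.0466 and 0.0439 CPM in CM. Other leukocyte and macrophage members differed from it: Cd68, Spi1 and Mrc1 were open. Lyz2, unopened, was lower in EC, with 0.976 and 1.38 CPM, against 60.5, 50.9 and 38.3 CPM in CM. Hba-a1 and Hbb-bs, which have near-identical copies, were listed at 0 in all 5 libraries, and this 0 is not read as absence of RNA.

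Homeobox and patterning genes had open promoters with little or no RNA. Of 46 genes, 36 had an open promoter (78.3%, against 66.2% of all genes). So did 35 of the 45 below 1 CPM and 20 of the 27 at 0 counts, against 21.4% of all genes at 0 counts. Promoter peaks of the 35 were weak, with median folds of 4.79 and 4.56, against 6.52 and 6.75 for all 4186 open promoters below 1 CPM and 14.3 and 14.2 for the 8760 at 10 CPM or more. Gbx2, a brain patterning factor, had 0 counts in EC, against 0.062, 0.0466 and 0.0879 CPM in CM, and peaks of 10.2-fold and 9.31-fold. Nkx6-1, a factor of spinal cord and pancreas, had 0 counts in EC and peaks of 16-fold and 14.2-fold, above the median of highly expressed genes in replicate 2. Both were named after their values were seen. The unopened members of highest RNA level were Hoxa2, Hoxa9 and Hoxb1, at 0.289, 0.247 and 0.0904 CPM in EC.

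Neuronal genes were open in 18 of 22 cases, against 66.2% of all genes, and in 8 of 8 at 0 counts, against 21.4% of all genes at 0 counts. Neurog2, a factor that makes neurons, had 0 counts in EC and peaks of 8.67-fold and 7.85-fold, and was named after its values were seen. Camk2a, at 37.5 and 33.4 CPM in EC, against 39.5, 43.8 and 56.1 CPM in CM, was unopened, as were Stmn2 and Rbfox3. The highest member was thus unopened at its outermost start while the members at 0 counts were open. Another exon start of Camk2a, internal exons included, lay within 1 kb of a region, and no RefSeq window was given.

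Liver, gut and pancreas genes were open in 9 of 22 cases (40.9%, against 66.2% of all genes). At 0 counts 3 of 11 were open, against 21.4% of all genes without counts. The 3 open genes at 0 counts were the developmental factors Ptf1a, Pdx1 and Cdx2, with peaks between 3.01-fold and 4.02-fold. Liver products Alb and Afp had no region within 50 kb, and Fga, Fgb and Fgg had no open promoter. Apoa2, Apoa1, Apob and Ttr of the same list were open. Apoa2 had peaks of 20.9-fold and 20.7-fold, with 0.181 and 0 CPM in EC. Olfactory receptor genes, which are used in nasal neurons, were open in 12 of 1105 cases and vomeronasal receptor genes in 2 of 300. These shares were 1.09% and 0.667%, against 66.2% of all genes. Their means were 0.597 and 0.563 distal regions, against 5.19 over all genes. Of the 7380 genes at 0 counts, 1058 were olfactory and 282 vomeronasal receptor genes.

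Widely used genes had open promoters at shares near those of all genes of high RNA level. Of 52 cytoplasmic ribosomal protein genes 52 were open, and 48 of them were at 10 CPM or more, where 97.4% of all genes were open. All 17 immediate early and all 30 cell cycle genes were at 10 CPM or more, and 17 and 29 of them were open. The unopened cell cycle gene was Cdkn1a, the inhibitor p21, with 13.5 and 12.4 CPM in EC, against 2.27, 2.47 and 2.68 CPM in CM, and its nearest region at 2366 bp from the outermost start. Of its 2 RefSeq windows 1 lay in an open region. Rpl26 was open and listed at 0 in all 5 libraries.

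Replication-dependent histone genes, whose transcripts lack a poly(A) tail, were all open (59 of 59, against 66.2% of all genes). Their median RNA level was 0.8 CPM in EC. Their summed RNA was 149 and 161 CPM in EC, against 6863, 7053 and 7266 CPM in CM. Of 56 tested, 56 were called lower in EC, against 40.2% of all tested genes. Small nuclear and nucleolar RNA genes, also without a tail, summed to 43.5 and 34.9 CPM in EC, against 878, 842 and 765 CPM in CM. RNA without a tail thus moved with the group, and its part in the comparison of EC with CM was not tested. microRNA genes were open in 354 of 1167 cases (30.3%, against 66.2% of all genes), and their RNA level is that of the counted precursor stretch. Most had 0 counts (1007), and 280 of these were open, where 21.4% of all genes at 0 counts were open.

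Genes at 10 CPM or more without a region at the outermost start numbered 231 of 8991. No peak of either library lay within 1 kb at 205 of them, and a peak of 1 library did at 26. For 159 of the 231 another annotated exon start lay within 1 kb of a region, while for 72 none did. With RNA level taken per kb of exon length, genes at 10 or more without a region numbered 130. A region was found within 2 kb of 61, and 14 had none within 50 kb. Among the 14, Vamp7, Pisd-ps3, Dhrsx and Tmlhe lie on random or unplaced scaffolds on which no shared region was found. Strbp, Gtdc1, Dmd and Rps6ka6, also among them, each had at least 1 RefSeq window in a region. Exon starts include those of internal exons, so the count of 159 is not one of other gene starts. A RefSeq promoter window was given for 183 of the 231, and at 123 (53.2% of the 231) at least 1 such window lay in a region.

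Mest, an imprinted gene, had the highest RNA level of these. It had 2276 and 2231 CPM in EC, against 1039, 1033 and 976 CPM in CM. RefSeq windows of its 2 outermost starts are shown since the upstream one was not open and the next one was; both were picked after the values were seen. The capitals again mark CG pairs.
Mest upstream window (chr6:30733256-30733555, + strand): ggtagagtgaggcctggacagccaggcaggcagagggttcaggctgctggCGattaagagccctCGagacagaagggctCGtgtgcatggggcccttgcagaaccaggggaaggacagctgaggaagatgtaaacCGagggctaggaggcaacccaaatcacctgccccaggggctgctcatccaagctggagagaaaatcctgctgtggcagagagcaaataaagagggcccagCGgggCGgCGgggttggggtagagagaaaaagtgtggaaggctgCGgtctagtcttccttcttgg
Mest downstream window (chr6:30737800-30738099, + strand): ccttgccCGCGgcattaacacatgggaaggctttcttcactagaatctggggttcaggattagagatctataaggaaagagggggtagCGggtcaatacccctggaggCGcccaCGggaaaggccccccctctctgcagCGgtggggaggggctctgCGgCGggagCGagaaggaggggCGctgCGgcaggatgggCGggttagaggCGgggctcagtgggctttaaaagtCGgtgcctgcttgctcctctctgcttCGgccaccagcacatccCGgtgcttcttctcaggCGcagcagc

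The upstream window held 8 CG pairs, with a ratio of 0.327, and had no peak in either library. The downstream window held 17 CG pairs, with a ratio of 0.59, and had a peak in both. The region nearest to the outermost start of Mest lay 1782 bp away, and 12 distal regions lay within 50 kb.

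The other 9 genes of highest RNA level in this class, in falling order, were Sptbn1, Tpm3, Tm4sf1, Dnmt1, Ywhaz, Macf1, Atp2b4, Fth1 and Foxp1. All of these had another exon start near a region, internal exons included. At Tm4sf1, Macf1 and Atp2b4 the single RefSeq window given was not open, and for Ywhaz none was given, so no other open promoter is shown for these 4. Sptbn1, a spectrin of the membrane skeleton, had 1314 and 1366 CPM in EC, against 1920, 1981 and 2062 CPM in CM, and its nearest region lay 7653 bp from the outermost start. Dnmt1, the maintenance DNA methyltransferase, had 477 and 489 CPM in EC, against 410, 432 and 419 CPM in CM, and 2 of its 3 RefSeq windows were open. Tm4sf1, an endothelial membrane protein gene, had 452 and 545 CPM in EC, against 107, 93.8 and 82.2 CPM in CM, with its nearest region at 1952 bp. Fth1, ferritin heavy chain, had 304 and 291 CPM in EC, against 136, 167 and 161 CPM in CM, and 21 distal regions. Foxp1, a forkhead factor, had 264 and 288 CPM in EC, against 115, 117 and 120 CPM in CM, and all 3 of its RefSeq windows were open although its outermost start was not. The remaining genes had their nearest region between 1790 and 7580 bp.

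Genes with 0 counts in both EC libraries but an open promoter numbered 1582 of 7380. Of these 897 were protein-coding, 343 lncRNA and 280 microRNA genes. Another start of a gene at 1 CPM or more lay within 1 kb at 156 of them, and 184 overlapped such a gene on the same strand. Neither held for 1312. CM libraries also had 0 counts for 644 of the 1582 (40.7%), a smaller share than the 4511 of all 7380 (61.1%). Of the 1582, 26 averaged 1 CPM or more in CM.

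The 10 with the strongest promoter peaks were Mir101c, A730008H23Rik, Mir3069, Lrch4, Mir6976, Mir1938, Gm7367, Nutf2-ps1, Gm6793 and Mir22, with peaks between 20.4-fold and 36.2-fold. They are microRNA hairpins, pseudogenes and overlapping symbols, and 7 of the 10 overlapped a gene of at least 1 CPM on the same strand. Mir101c lay 323 bp from a region 38512 bp wide on chromosome 9, 1 of the 5 widest of all regions. Lrch4, a leucine-rich repeat gene, was listed at 0 in all 5 libraries with peaks of 21.8-fold and 21.4-fold. The counting command in the file headers sets no option to count reads that fall on several genes, and its part in these zeros was not tested.

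Genes at 10 CPM or more with most distal regions had 27 to 43 within 50 kb. Airn, an imprinted lncRNA, had 43 and its antisense partner Igf2r, the receptor that clears IGF2, had 38. Igf2r had 3019 and 2938 CPM in EC, against 5191, 5097 and 4535 CPM in CM, and was lower in EC (log2 fold change -0.78, SE 0.0842, edgeR's adjusted p = 8.29e-06). Erdr1 had 32, Cwc22 30, Mpzl1 30, Ndst1 29 and Bahcc1 28. The start of Erdr1 lies inside a region 32629 bp wide on chromosome Y, 1 of the 5 widest of all regions. The part of read mapping in these counts was not tested. Smad6, the inhibitor of BMP signalling, had 32 distal regions, with 173 and 172 CPM in EC, against 65.4, 61.3 and 54.3 CPM in CM. Notch1, the receptor that acts in endocardium, had 28, with 388 and 393 CPM in EC, against 38.6, 35.8 and 37.6 CPM in CM. Col4a1, a basement membrane collagen chain, had 27, with 2767 and 2519 CPM in EC, against 689, 700 and 628 CPM in CM. Smad6, Mpzl1, Ndst1, Bahcc1, Notch1 and Col4a1 were higher in EC, and Airn, Igf2r, Erdr1 and Cwc22 lower. The 5 genes at 0 counts with most distal regions had 52 or 53. They were Speer8-ps1, Gm10354, Gm22109, Gm22291 and Gm23284, and the last 3 share 1 start. Gm22109, Gm22291 and Gm23284 are annotated as rRNA genes.

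Distal EC regions went with the direction of the RNA difference between EC and CM. Of 11535 called genes with a placed start, 48.3% were higher in EC. That share was 27.6% of 627 called genes with 0 distal regions, 30.3% of 899 with 1, 38.7% of 2155 with 2 to 3, 48.2% of 4120 with 4 to 7 and 61.8% of 3734 with 8 or more. Using replicate 2 alone the lowest and highest classes had 28.1% and 60%, and with replicate 3 alone 27.8% and 58.9%. Each step thus ran the same way in both ATAC libraries. Restricted to genes with an open promoter, the shares were 26.7% at 0 and 62.9% at 8 or more.

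**Figure D4:**
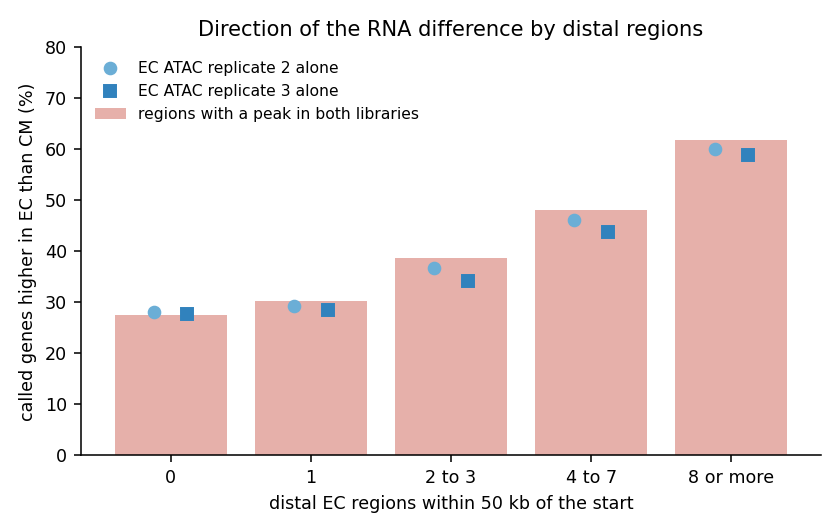
Percentage of called genes that were higher in EC than in CM RNA, by distal EC regions within 50 kb of the start. Bars use regions with a peak in both libraries and run between 27.6% and 61.8%; the points give each ATAC library alone.

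Split the other way, called genes with a log2 fold change below -4 had 5.59 distal regions on average (781 genes), those with a log2 fold change between -1 and 0 had 4.95 (2616 genes), those between 0 and 1 had 6.4 (2273 genes), those between 2 and 4 had 8.28 (1254 genes) and those above 4 had 7.8 (223 genes). Open promoters were found at 66.7% of the lowest class, 98.3% of the class between 0 and 1 and 73.5% of the highest class. Both ends had fewer open promoters than the middle. Their median RNA level in EC was low too, at 0.11 CPM in the lowest class and 2.82 CPM in the highest, against 48.4 CPM between 0 and 1.

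The 1000 genes of highest RNA level in each library gave a comparison over samples. They had means of 7.87 and 7.75 distal EC regions in the EC libraries, against 6.37, 6.42 and 6.45 in the CM libraries. Both EC values lay above all CM values. The difference was 1.39 regions, with a mean of 7.81 ± 0.087 over the 2 EC libraries (SD) and 6.42 ± 0.039 over the 3 CM libraries (SD), and the exact two-sided permutation p was 0.1. With 10 ways to split these 5 libraries, 0.1 is the smallest p the design allows, so no split could reach 0.05. The difference was 0.83 with each region given to its nearest start alone, 0.61 within 20 kb and 2.27 within 100 kb. Open promoters made up 97.9% in both EC libraries, against 95.6%, 95.3% and 95.4% in CM (exact permutation p = 0.1, again the smallest).

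Of the 1000 highest genes by group mean, 568 were shared, 432 were in the EC set alone and 432 in the CM set alone. Distal regions averaged 8.71 for the EC set alone, 5.54 for the CM set alone and 7.17 for the shared genes. Open promoters differed less, with 97.2% for the EC set alone, 91.9% for the CM set alone and 98.4% for the shared. Across RNA classes the gap between EC and CM libraries was widest at 100 CPM and more, where distal regions averaged 7.16 and 7.13 in EC libraries, against 6.01, 6.03 and 6.06 in CM libraries. At 10 to 100 CPM they averaged 5.96 and 5.95 in EC libraries, against 5.97, 5.98 and 5.99 in CM libraries. Middle classes ran the other way, with 5.85 and 5.86 in EC libraries, against 6.15, 6.1 and 6.1 in CM libraries at 1 to 10 CPM. At 0.1 to 1 CPM they were 5.52 and 5.42 in EC libraries, against 5.7, 5.74 and 5.72 in CM libraries. In the class with 0 counts EC libraries had 3.68 and 3.77, against 3.35, 3.38 and 3.34 in CM libraries, which were counted more deeply and listed fewer genes at 0.

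**Figure D5:**
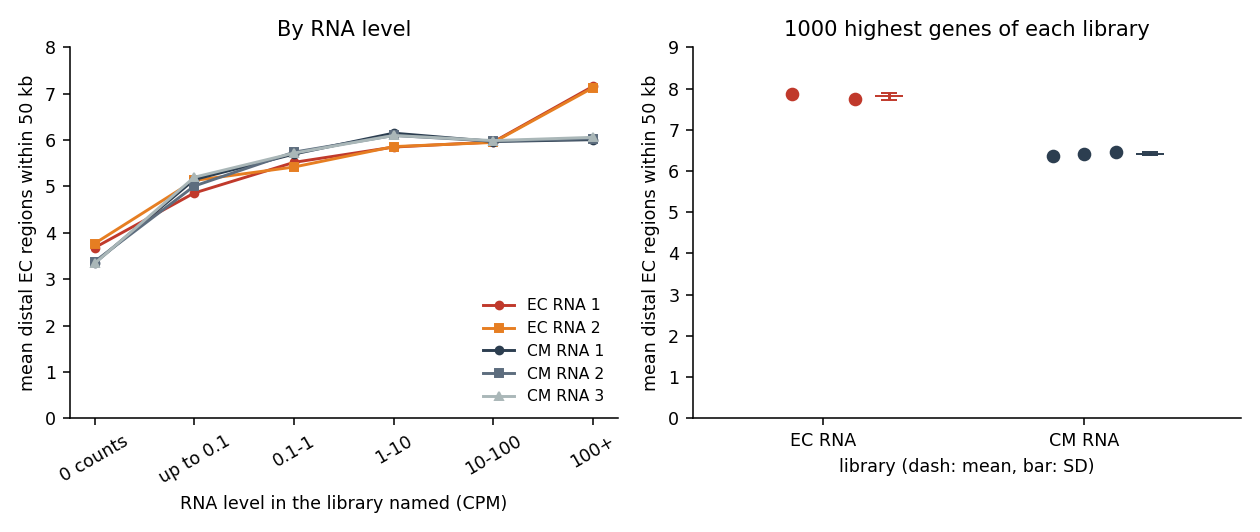
Left, mean distal EC regions within 50 kb by RNA class, with the classes made from each EC or CM library in turn. Right, the same mean over the 1000 highest genes of each library; dots are libraries, dashes means and bars SD, with EC at 7.87 and 7.75 and CM at 6.37 to 6.45.

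The other endothelial ATAC libraries of the series, sorted at E12.5 from embryos labelled Gata4 ko or Gata4 het after tamoxifen to the dams at E9.5 had activated a Cdh5-driven Cre, served as further samples the regions above did not use. With EC RNA from the Tie2 lineage, the step in open promoters between 0 counts and 100 CPM and more was 80.5, 80.8 and 83.6 points in ko libraries and 79.9, 81.2 and 81.8 points in het libraries, against 75.8 and 74.2 points in the 2 Tie2-Cre libraries. Shares at 100 CPM and more lay between 95.6% and 97%, while those at 0 counts were between 12.1% and 16.8%, below the 21.9% and 23.7% of the Tie2-Cre libraries. The ko and het lists were also shorter, with 55733 to 90326 peaks, and list length moves with the share at 0 counts. No RNA from ko or het cells was analysed here.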

How the data were processed

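RNA values were deposited as whole read counts per gene, made by the authors with featureCounts 1.6.3 on forward-stranded reads and mm10 genes, per the file headers. Each library has its own deposited peak list, and peak names carry MACS2. A peak has a fold over background (the deposited ratio), −log10 p and −log10 q values and a summit offset, per the form of the deposited files. The submitters' processing notes name MACS2 2.2.4, STAR 2.7.3a, deepTools 3.3.1, Bowtie2 2.2.9 and Bowtie 1.1.1 without a role. Peak fold is given for each list by itself.

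Members, gene lists and tests were chosen with earlier results of these data known. Overlapping peaks (1 bp or more) of both EC libraries were joined, and joined regions with a peak of each were kept. Starts of 144 genes on several chromosomes or strands and of 150 symbols with copies far apart were left out. Coordinates are mm10, counted from 1. The EC-only count table repeats the EC columns and was not used, and the cardiomyocyte ATAC samples and the cardiomyocyte GATA4 lists were not used here. EC and CM counts were compared with edgeR 4.0.16 in R 4.3.3 (quasi-likelihood test after TMM scaling and filterByExpr, adjusted by Benjamini-Hochberg, called under 0.05). Standard errors come from dividing the log2 fold change by the square root of F. DESeq2 1.42.0 was an alternative. Replicates differed by more than counting noise, with chi-square per degree of freedom of 7.84 between EC libraries and 13.4 to 33.9 between CM libraries. Scripts were tested on simulated data. Python 3.11.15 with numpy 2.4.6, pandas 2.3.3, scipy 1.17.1 and matplotlib 3.10.9 was used.

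Gene lists (14, with 355 entries) and 5 families matched by symbol were described by their counts. Named genes were the 8 endothelial genes of highest EC RNA, up to 4 such members of the endocardial, cardiac, epicardial and blood lists, up to 3 on the side against a list's majority, the 10 highest genes without a promoter region, the 10 undetected genes with the strongest promoter peak, and the genes with most distal regions (10 at 10 CPM or more and 5 at 0 counts). Alternatives were other distances, stricter or equal-length peak lists, counts per kb of exon, other gene sets and scalings, and each library left out. Whether a peak is listed depends on sequencing depth and the caller, so an unopened promoter is one with no shared peak and may not be closed.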

Additional observations from a re-analysis of the deposited data

How the results depend on the processing

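Differences kept their direction in every alternative tried, while their size often moved. The promoter step moved by more than its SD over single-library pairings in 8 alternatives and by less in 5. For the step in regions these counts were 13 and 2. The step in the EC-higher share moved by more than its SD between the ATAC libraries in 17 and by less in 3. Leaving out 1 library at a time gave a promoter step of 72.6 to 75.8 points, a step in regions within 50 kb of 4.51 to 6.27, a step in the EC-higher share of 31.1 to 35.6 points and a top-1000 difference of 1.33 to 1.97 regions (exact permutation p 0.1 to 0.333, in each case the smallest the split allows). Expressed genes without a promoter region then numbered 211 to 232 and undetected genes with one 1617 to 2127; EC calls numbered 5163 to 5437 higher and 5438 to 5904 lower. The promoter step (76.3 points) was 78.1 with −log10 q of at least 5, 78.8 within 0.5 kb and 71.9 within 2 kb. The step in regions (4.85) was 4.19 with that q, 4.56 with equal list length, 5.31 without small RNA genes, 6.66 per kb of exon, 2.45 within 20 kb, 8.54 within 100 kb and 3.58 for distal regions. The step in the EC-higher share (34.2 points) was 35.0 with that q, 34.8 with equal length, 35.2 without small RNA genes, 42.6 within 20 kb, 27.4 within 100 kb, 33.4 with DESeq2, 30.9 without the count filter and 37.6 for genes of at least 2-fold.

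Among alternatives chosen after seeing the data, protein-coding genes alone gave a promoter step of 79.7, a region step of 5.69 and 897 undetected open genes. Without olfactory and vomeronasal receptors the steps were 71.8 and 3.97. Giving each region to its nearest start alone gave a region step of 3.14, an EC-higher step of 28.0 and a top-1000 difference of 0.83. Called genes of at least 10 CPM in EC and CM gave an EC-higher step of 36.3. Expressed genes without a promoter region (231) numbered 72 when any exon start counted. Per kb of exon, a setting planned beforehand, they numbered 130. The cause of these moves was not tested.

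Replicate numbers are shared by EC and CM labels, and deviations of same-numbered libraries from their group means were nearly uncorrelated over genes (-0.0196 and -0.00877). A batch acting on few genes could be missed by these values. They cannot show whether same-numbered libraries were paired, and the labels do not say. The fit with the replicate block gave 5248 higher and 5729 lower calls, against 5575 and 5972, and an EC-higher step of 36.2 points. Depth limits the class with 0 counts, since EC libraries were counted less deeply than CM libraries.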
